A study of Homo sapiens with 6 samples.

Results

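Immune checkpoint and evasion genes are the genes through which a tumour cell can restrain lymphocytes or macrophages. Their transcripts were followed in A549 cells, a human lung adenocarcinoma line, with and without added CELF6. CELF6 is an RNA-binding protein that acts on the splicing and stability of mRNAs. The set held 10 genes chosen by symbol, CD274, PDCD1LG2, CD276, VTCN1, TNFRSF14, CD70, PVR, LGALS9, CD47 and IDO1. Each of the 10 symbols had 1 row among the 29889 genes of the deposited tables. CELF6-OE cells had received the pIRES-hrGFP-1a plasmid carrying CELF6 and Control cells the same plasmid empty, both by lipid transfection with collection 48 h later. Polyadenylated RNA was sequenced in 3 libraries per group. All libraries came from 1 cell line and from transient transfection, so both groups shared the vector and the lipid reagent. The share of cells that took up plasmid was not given in the sources used here. In bulk RNA of this kind, a gene lowered in fewer cells and a gene lowered in every cell cannot be told apart.

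The ligands PD-L1 (CD274) and PD-L2 (PDCD1LG2) engage PD-1 on T cells and dampen signalling from the T cell receptor. CD47 engages SIRPα on macrophages and holds back phagocytosis, PVR engages TIGIT, CD96 and the activating receptor DNAM-1, and IDO1 depletes tryptophan around the cell. Several of these genes are known targets of interferon-gamma, which acts through JAK kinases, STAT factors and IRF1.

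The counts of CELF6 in CELF6-OE 1, 2 and 3 were 18646, 20789 and 11571. No count was assigned to it in any Control library, which allows up to 3 counts per library for sampling alone. A gene model on the same strand, ENSG00000260729, shares 3212 of the 3373 exon bases of CELF6. That model had 1097, 1163 and 1156 counts in CELF6-OE against 1440, 1508 and 1596 in Control. How reads were divided between these models was not given, so the CELF6 level in Control is uncertain. The libraries held between 33748328 and 37920700 counts assigned to genes, and replicate libraries differed by more than counting noise in every pair. Markers of epithelium such as KRT7, KRT8 and KRT18 were present at 1523 to 2609 FPKM (fragments scaled for transcript length and library depth) in all libraries. PTPRC, the pan-leukocyte gene CD45, had 0 counts in the CELF6-OE libraries and 2, 0 and 0 counts in Control. Over the 13 of 17 leukocyte markers with a row, the summed FPKM was 4.40 to 5.80 in CELF6-OE against 4.22 to 4.79 in Control, most of it from CD14.

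Promoters of 4 lowered genes are shown because interferon and NF-κB motifs were searched in them. RefSeq promoter entries on GRCh38.p14 cover 250 bases before to 50 bases after a start site, and 8 such entries from 7 of the 10 genes were searched. Capitals mark matches on either strand to an IRF element (GAAANNGAAA), to a GAS element bound by STAT dimers (TTCNNNGAA) or to the NF-κB motif, and where matches overlap they run together. The 4 sequences below belong to genes with lower counts in CELF6-OE and lie at chr9:5450292-5450591 on the plus strand for CD274, chr17:27630938-27631237 on the plus strand for LGALS9, chr1:2556121-2556420 on the plus strand for TNFRSF14 and chr3:108090982-108091281 on the minus strand for CD47, each printed 5′ to 3′ on the strand of its gene.
CD274: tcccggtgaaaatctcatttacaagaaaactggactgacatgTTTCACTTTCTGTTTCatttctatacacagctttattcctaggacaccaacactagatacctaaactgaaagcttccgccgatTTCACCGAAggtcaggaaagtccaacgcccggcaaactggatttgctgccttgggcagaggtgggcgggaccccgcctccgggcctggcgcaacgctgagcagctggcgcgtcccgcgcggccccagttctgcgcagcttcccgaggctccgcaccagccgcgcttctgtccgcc
LGALS9: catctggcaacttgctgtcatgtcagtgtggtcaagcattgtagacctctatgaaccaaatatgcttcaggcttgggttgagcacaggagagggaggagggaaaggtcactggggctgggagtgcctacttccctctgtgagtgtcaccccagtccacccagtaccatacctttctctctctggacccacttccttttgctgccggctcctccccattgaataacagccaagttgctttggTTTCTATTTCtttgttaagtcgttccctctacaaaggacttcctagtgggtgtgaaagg
TNFRSF14: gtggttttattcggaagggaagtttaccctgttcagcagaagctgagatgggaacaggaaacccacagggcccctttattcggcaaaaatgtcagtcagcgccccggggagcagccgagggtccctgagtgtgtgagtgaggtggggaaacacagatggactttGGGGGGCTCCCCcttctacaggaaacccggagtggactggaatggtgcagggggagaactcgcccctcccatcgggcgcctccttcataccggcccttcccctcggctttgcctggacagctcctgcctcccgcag
CD47: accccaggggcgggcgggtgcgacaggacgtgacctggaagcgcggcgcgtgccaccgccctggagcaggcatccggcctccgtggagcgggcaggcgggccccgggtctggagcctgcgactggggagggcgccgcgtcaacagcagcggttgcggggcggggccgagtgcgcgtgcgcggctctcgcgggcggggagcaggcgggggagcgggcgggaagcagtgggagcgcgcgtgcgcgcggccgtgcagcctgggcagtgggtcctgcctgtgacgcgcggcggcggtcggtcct

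In the CD274 promoter, overlapping IRF matches began 208 and 202 bases before the start site, and a GAS match began 125 bases before it. LGALS9 had an IRF match that began 9 bases before its start site. The IRF element was thus present in 2 of the 8 entries, against 3.57% of all 35116 RefSeq promoters. The GAS element was present in 1 of 8 entries against 7.66% of all promoters. TNFRSF14 held overlapping NF-κB matches that began 86 to 84 bases before the start, and 1 of the CD276 entries held a match that began 68 bases before its start, so that the motif was found in 2 of 8 entries against 11.3% of all promoters. The CD47, PVR and VTCN1 windows held none of the 3 motifs. These matches are letters in a fixed window and no binding was measured.

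Of the 10 genes, 9 passed the filter on low counts and entered the quasi-likelihood test of edgeR, whose p was adjusted by the Benjamini-Hochberg method over all 15847 genes kept. A gene was called when this edgeR adjusted p was under 0.05. CD274, PDCD1LG2, TNFRSF14, LGALS9, CD47 and IDO1 were lower in CELF6-OE, which made 6 of 9 genes called lower and 0 higher, where 11.5% of all kept genes were called lower and 6.47% higher. CD276, CD70 and PVR did not pass. This set and the related lists below were chosen with earlier results of these data known. Their shares beside those of all kept genes are therefore a description and not a test. The same 6 genes met the stricter rule for differentially expressed genes (DEGs), an unadjusted p under 0.01 with a fold of at least 1.5, which 5.91% of kept genes met downward and 1.36% upward. In these 6 genes the CELF6-OE libraries all lay below the Control libraries in CPM (counts scaled for library size), a pattern that 20.0% of kept genes showed in this direction and 17.9% in the other. The median log2 fold change over the 9 genes, which leave out VTCN1, was -1.38, and over all kept genes it was 0.01. Lowered genes were spread over 5 chromosomes, and their folds ranged from 1.61-fold for CD47 to 9.75-fold for IDO1, apart from PDCD1LG2, whose CELF6-OE counts were too few for a firm fold.

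**Figure D1:**
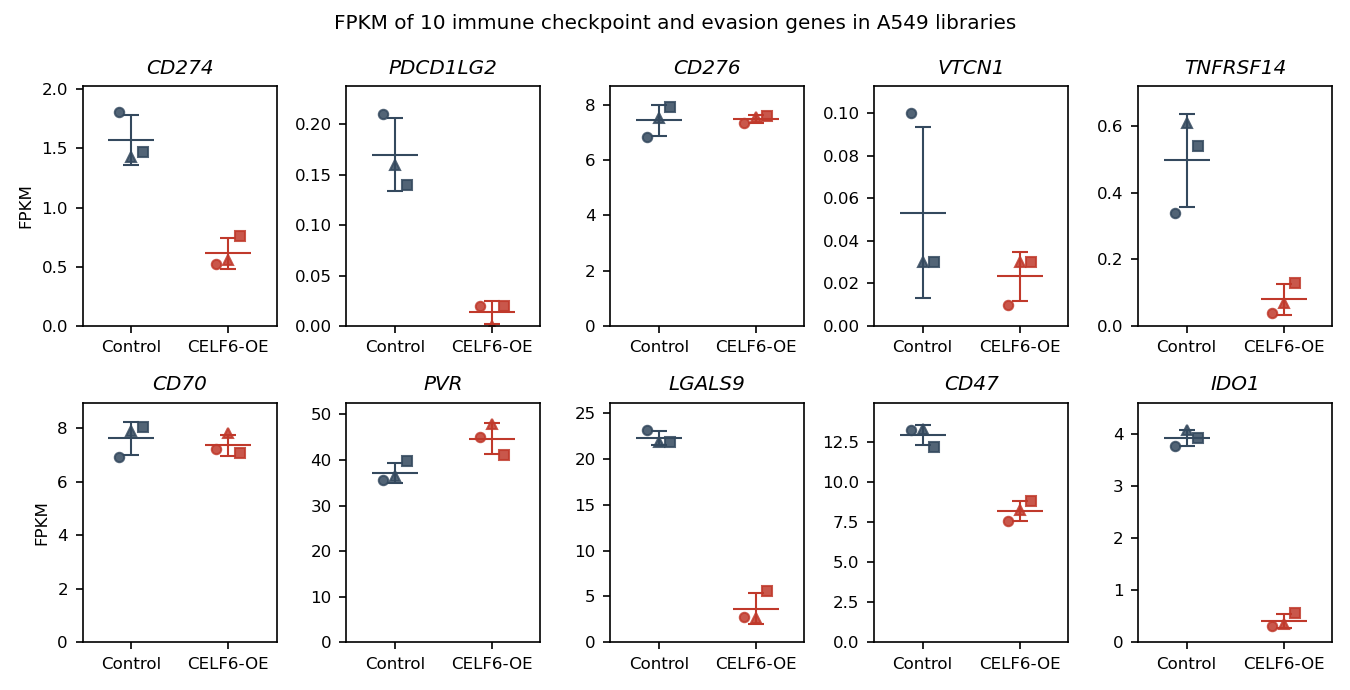
FPKM of the 10 immune checkpoint and evasion genes in each library, 1 panel per gene with its own linear axis from 0. Circles, triangles and squares are replicates 1, 2 and 3, and lines give the mean and SD of each group (n = 3 libraries). Points of CELF6-OE lie below all points of Control for CD274, PDCD1LG2, TNFRSF14, LGALS9, CD47 and IDO1, and the groups overlap for CD276, CD70 and VTCN1.

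Among the PD-1 ligands, CD274 (ENSG00000120217) lies on the plus strand of GRCh38 at chr9:5450503-5470566 and has 7 exons in its canonical transcript. Its counts were 69, 77 and 99 in CELF6-OE 1, 2 and 3, against 253, 207 and 213 in Control 1, 2 and 3. The groups did not overlap, and CELF6-OE 3 was the highest of its group. Mean FPKM was 0.613 ± 0.129 (SD, n = 3) in CELF6-OE and 1.57 ± 0.209 (SD, n = 3) in Control. CD274 fell by 1.38 on the log2 scale (SE 0.16, 95% interval -1.74 to -1.02), or 2.60-fold, with an edgeR adjusted p of 0.00022. PD-L1 mRNA was low in both groups compared with most of the other genes of the set.

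PDCD1LG2 (ENSG00000197646, chr9:5510531-5571282, plus strand), which encodes PD-L2, starts 39964 bases after the end of CD274. It had 2, 0 and 2 counts in CELF6-OE against 19, 15 and 13 counts in Control. The gene was close to undetected in CELF6-OE and rare in Control, where its FPKM was 0.14 to 0.21. Summed over libraries and scaled by library size, CELF6-OE kept 9.20% of the Control counts, with an exact 95% interval of 2.41% to 25.2% that covers counting error only. The fitted log2 fold change was -3.37 (SE 0.58, edgeR adjusted p = 0.00255), a value that depends on the prior count at so few reads. DESeq2 gave the gene no adjusted p.

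Since both PD-1 ligand genes lie together, the neighbouring genes of the same stretch of chromosome 9 were examined. Of 14 neighbours listed, 10 were tested, with 2 called lower, 0 called higher and a median log2 fold change of 0.04. Here and for the lists below, the share over all kept genes was 11.5% called lower and 6.47% called higher. PLGRKT, a plasminogen receptor gene that ends 12577 bases before CD274 on the other strand, was lower by a log2 fold change of -0.54 (SE 0.09, edgeR adjusted p = 0.0026). INSL4, an insulin-like hormone gene 215198 bases before CD274, had a log2 fold change of -0.89 (SE 0.19, edgeR adjusted p = 0.00841), which was not called on log2 FPKM with limma. JAK2, the kinase below the interferon-gamma receptor and also a neighbour, had a log2 fold change of -0.49 and did not pass (edgeR adjusted p = 0.136).

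CD276 (B7-H3, ENSG00000103855, chr15:73683966-73714514, plus strand) is a B7 molecule found on many solid tumours, and it had 1187, 1250 and 1194 counts in CELF6-OE against 1156, 1322 and 1392 in Control. Its CELF6-OE libraries all fell inside the Control range. Mean FPKM was 7.50 ± 0.139 against 7.44 ± 0.546 (SD, n = 3 each), and the log2 fold change was -0.02 with a 95% interval of -0.20 to 0.16 (edgeR adjusted p = 0.894). VTCN1 (B7-H4, ENSG00000134258, chr1:117143587-117210960, minus strand), another inhibitory B7 ligand, had 1, 3 and 3 counts in CELF6-OE against 12, 3 and 3 in Control. Only Control 1 stood above the rest, and VTCN1 did not pass the filter on low counts. Tested without that filter it had an edgeR adjusted p of 0.397, and CELF6-OE kept 42.0% of the Control counts with an exact 95% interval of 14.8% to 105%. A difference in VTCN1 was not detectable at this depth.

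The broader B7 and butyrophilin family held 11 further tested genes, of which 5 were called lower and 0 higher, with a median log2 fold change of -0.25. The lowered genes named by the fixed rule were all butyrophilins, a family related to the B7 molecules. Some of its members take part in the sensing of phosphoantigen by gamma-delta T cells. BTN3A3 fell by 1.54 on the log2 scale (SE 0.16, edgeR adjusted p = 7.49e-05) and BTN3A1 by 1.07 (SE 0.12, edgeR adjusted p = 0.000165). BTN3A2 fell by 0.75 (SE 0.09, edgeR adjusted p = 0.000272) and BTN2A2 by 0.62 (SE 0.10, edgeR adjusted p = 0.00224).

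Signalling with lymphocytes also runs through the tumour necrosis factor families. TNFRSF14 (HVEM, ENSG00000157873, chr1:2555639-2565382, plus strand), the ligand of the inhibitory receptor BTLA, had 3, 5 and 9 counts in CELF6-OE against 25, 46 and 41 in Control. Every CELF6-OE library was under the lowest Control library. Mean FPKM was 0.080 ± 0.0458 in CELF6-OE and 0.497 ± 0.140 in Control (SD, n = 3 each), and the log2 fold change was -2.62 (SE 0.40, 95% interval -3.51 to -1.73), or 6.15-fold lower, with an edgeR adjusted p of 0.00127. Its antisense partner TNFRSF14-AS1 had 0 counts in 5 libraries and 3 in Control 3. CD70 (ENSG00000125726, chr19:6583183-6604103, minus strand), the ligand of CD27, had 317, 350 and 302 counts in CELF6-OE against 317, 377 and 383 in Control. The groups overlapped, the log2 fold change was -0.08 (SE 0.11, 95% interval -0.32 to 0.16) and the edgeR adjusted p was 0.643.

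Of the 6 tested co-stimulatory partners of the same families on the tumour side, 3 were called lower and 0 higher, with a median log2 fold change of -0.42. CD40, which receives help signals from T cells, had 182, 175 and 218 counts in CELF6-OE against 500, 550 and 572 in Control. It fell by 1.42 on the log2 scale (SE 0.12, edgeR adjusted p = 3.23e-05). TNFSF9 (4-1BB ligand) had a log2 fold change of -0.37 (edgeR adjusted p = 0.0254) and its receptor TNFRSF9 one of -0.43 (edgeR adjusted p = 0.0478). The call of TNFSF9 was lost without any 1 of the CELF6-OE libraries or Control 2 (edgeR adjusted p of up to 0.131). That of TNFRSF9 was lost in the same fits and without Control 3 (edgeR adjusted p of up to 0.184). TNFRSF9 was also not called with library size alone, with upper quartile scaling or with limma on log2 FPKM (edgeR or limma adjusted p of up to 0.239).

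PVR (CD155, ENSG00000073008, chr19:44643798-44666162, plus strand) was the most abundant of the 10 genes in both groups. It had 5746, 6240 and 5106 counts in CELF6-OE against 4739, 5047 and 5507 in Control. On the FPKM scale the groups did not overlap, at 44.6 ± 3.39 against 37.2 ± 2.18 (SD, n = 3 each), whereas CELF6-OE 3 fell below Control 3 in CPM (149 against 151). The log2 fold change was 0.23 (SE 0.08, 95% interval 0.06 to 0.40) and the edgeR adjusted p was 0.0632, so PVR was not called. It was called higher in 6 of 21 alternative settings, among them the fit without Control 3, where the edgeR adjusted p was 0.0103. A gene model without a symbol, ENSG00000279095, lies on the same strand with all of its 2028 bases inside the last exon of PVR. That model had 593, 656 and 455 counts in CELF6-OE against 303, 321 and 349 in Control, with a log2 fold change of 0.88 (SE 0.12, edgeR adjusted p = 0.000743). With both models summed, a step chosen after seeing the data, the log2 fold change was 0.27 (SE 0.08, edgeR adjusted p = 0.0388).

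The nectin family around PVR did not move as a block, with 1 of 6 tested genes called lower and 0 called higher. Over all kept genes 11.5% were called lower. The median log2 fold change of the family was -0.19. NECTIN2 (CD112, PVRL2 in the deposited tables), which shares the receptors DNAM-1 and TIGIT with PVR, had 4351, 4477 and 4966 counts in CELF6-OE against 8056, 9287 and 9577 in Control. Its log2 fold change was -0.89 (SE 0.09, edgeR adjusted p = 6.23e-05). The ratio of PVR to NECTIN2 in FPKM was 1.33, 1.40 and 1.03 in CELF6-OE against 0.591, 0.546 and 0.578 in Control. PVR thus exceeded NECTIN2 in all 3 CELF6-OE libraries and was below it in all 3 Control libraries. The exact two-sided permutation test of the ratio gave p = 0.1, the smallest that 3 against 3 libraries allow.

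LGALS9 (ENSG00000168961, chr17:27629798-27649560, plus strand) encodes galectin-9, a secreted lectin known as a ligand of TIM-3. It had 308, 305 and 617 counts in CELF6-OE against 2727, 2679 and 2676 in Control. CELF6-OE 3 was above both other CELF6-OE libraries, yet far under every Control library. Mean FPKM was 3.66 ± 1.69 in CELF6-OE and 22.2 ± 0.759 in Control (SD, n = 3 each). The log2 fold change was -2.64 (SE 0.22, 95% interval -3.13 to -2.14), or 6.21-fold lower, with an edgeR adjusted p of 3.02e-05. The near-identical copies LGALS9B and LGALS9C could share reads with it, and their own counts are therefore uncertain. LGALS9C had 7, 8 and 10 counts in CELF6-OE against 39, 42 and 25 in Control, and LGALS9B had 2, 0 and 2 against 10, 7 and 13. An overlapping gene model on the same strand, ENSG00000266728, shares 294 exon bases with LGALS9, and with its counts added the log2 fold change was -2.66 (edgeR adjusted p = 2.69e-05).

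CD47 (ENSG00000196776, chr3:108043091-108091862, minus strand) had 1396, 1548 and 1581 counts in CELF6-OE against 2545, 2667 and 2439 in Control. These groups were well apart and each was tight, with mean FPKM of 8.21 ± 0.625 and 12.9 ± 0.634 (SD, n = 3 each). CD47 fell by 0.68 on the log2 scale (SE 0.07, 95% interval -0.84 to -0.53), a 1.61-fold change, with an edgeR adjusted p of 9.87e-05. A wider list around phagocytosis and inhibitory ligands also held activating ligands such as MICB, and genes that are not ligands, such as QPCT and QPCTL. Of its 18 tested genes 7 were called lower and 0 higher, with a median log2 fold change of -0.22.

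In that list the largest fold belonged to CEACAM1, a ligand of TIM-3 and of itself, with 224, 166 and 350 counts in CELF6-OE against 1628, 1614 and 1453 in Control. Its log2 fold change was -2.58 (SE 0.21, edgeR adjusted p = 2.01e-05). B2M, the light chain of MHC class I, which LILRB1 on macrophages reads as a stop signal, had a log2 fold change of -1.38 (SE 0.12, edgeR adjusted p = 3.98e-05). MICB, a stress ligand of the activating receptor NKG2D, had one of -0.57 (SE 0.09, edgeR adjusted p = 0.00161). CALR, calreticulin, which at the cell surface promotes uptake, had one of -0.40 (SE 0.06, edgeR adjusted p = 0.00167). The lowered genes of this list thus included both inhibitory and activating ligands.

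IDO1 (ENSG00000131203, chr8:39902275-39928790, plus strand) encodes indoleamine 2,3-dioxygenase, which opens the kynurenine route of tryptophan breakdown. It had 26, 30 and 47 counts in CELF6-OE against 330, 372 and 359 in Control. Mean FPKM was 0.410 ± 0.140 in CELF6-OE and 3.92 ± 0.155 in Control (SD, n = 3 each), with a wide gap between the groups. The log2 fold change was -3.29 (SE 0.19, 95% interval -3.70 to -2.87), or 9.75-fold lower, and its edgeR adjusted p of 3.16e-06 was the smallest of the 10 genes. Of 14 other tested genes of tryptophan and adenosine metabolism, 2 were called lower and 0 higher, with a median log2 fold change of -0.18. A share of 11.5% was called lower over all kept genes, so this list as a whole did not stand out. WARS1, the cytosolic tryptophanyl-tRNA synthetase, had a log2 fold change of -0.66 (SE 0.06, edgeR adjusted p = 5.8e-05). NT5E (CD73), which makes adenosine from AMP, had one of -0.37 (SE 0.09, edgeR adjusted p = 0.0162). The call of NT5E was lost without CELF6-OE 1 and with library size alone (edgeR adjusted p = 0.0876 and 0.0521). It was also lost with limma on log2(FPKM + 1), with or without a filter on mean FPKM, and on log2(FPKM + 0.1) (limma adjusted p of up to 0.172).

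**Figure D2:**
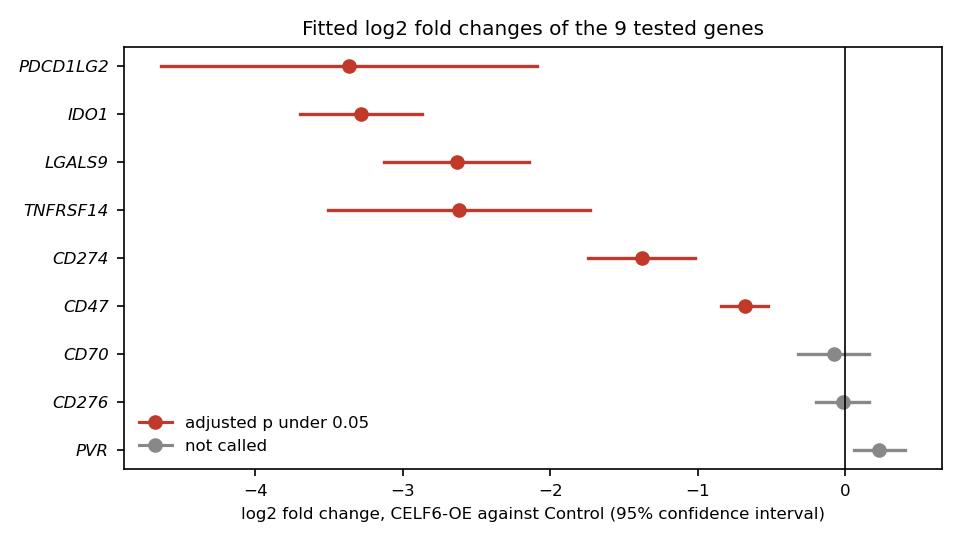
Log2 fold change of CELF6-OE over Control for the 9 tested genes (points) with 95% intervals (bars) from edgeR's quasi-likelihood fit. Intervals of CD276 and CD70 include 0, that of PVR runs from 0.06 to 0.40, and the 6 called genes lie between -3.37 and -0.68.

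The order of the 10 genes by FPKM, which is scaled for length, differed between the groups. In Control, mean FPKM ran from PVR through LGALS9, CD47, CD70, CD276, IDO1, CD274, TNFRSF14 and PDCD1LG2 to VTCN1, and of these neighbours only CD70 and CD276 overlapped. In CELF6-OE, LGALS9 stood below CD47, CD276 and CD70 in every library. CD47 was the highest of those 3 genes within each CELF6-OE library, although its range over libraries overlapped that of CD70 and of CD276, and CD276 and CD70 changed places between libraries. IDO1 was above CD274 in all Control libraries, at a mean of 3.92 against 1.57 FPKM. Within each CELF6-OE library it was below CD274, at 0.31, 0.35 and 0.57 FPKM for IDO1 and 0.52, 0.56 and 0.76 FPKM for CD274, while the ranges over libraries overlapped.

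Summed over the 10 genes, FPKM was 70.75, 75.11 and 71.69 in CELF6-OE against 91.89, 93.26 and 95.70 in Control. The sums did not overlap, at 72.5 ± 2.29 against 93.6 ± 1.93 (SD, n = 3 each). PVR made up 61.5% ± 3.66 of the sum in CELF6-OE and 39.7% ± 1.51 in Control, and LGALS9 made up 5.07% ± 2.40 and 23.8% ± 1.24 (SD, n = 3 each). The share of IDO1 was 0.566% in CELF6-OE and 4.18% in Control, whereas CD276 held 10.3% and 7.94%. Shares add up to a fixed whole, so a fall in LGALS9 raises the share of every other gene.

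**Figure D3:**
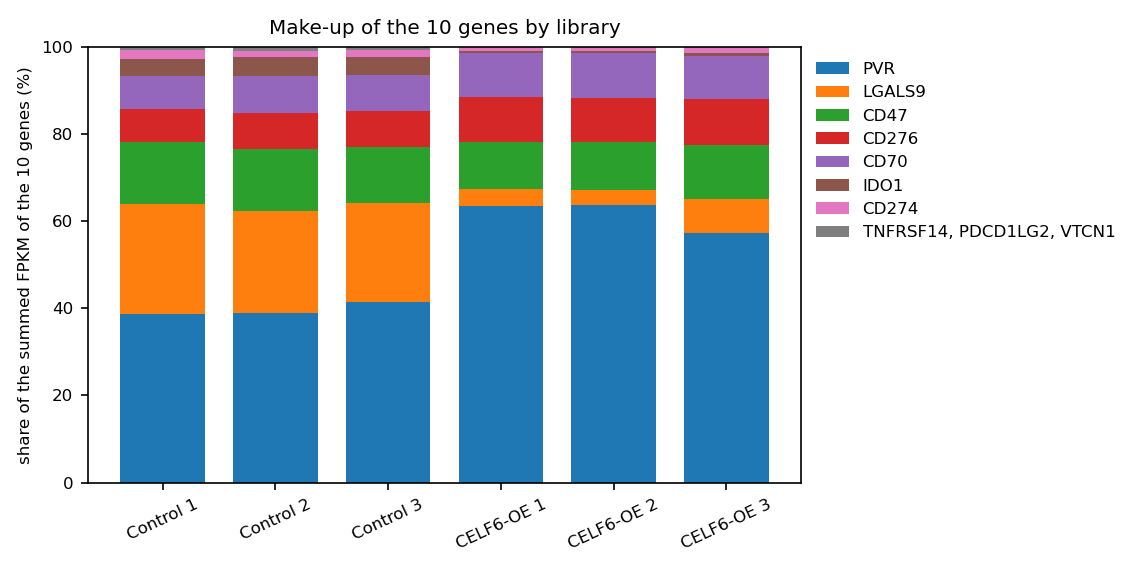
Share of the summed FPKM of the 10 genes taken by each gene in each library (stacked, in percent). PVR takes 61.5% on average in CELF6-OE and 39.7% in Control, while LGALS9 takes 5.07% and 23.8%.

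The 3 CELF6-OE libraries were not equal. CELF6-OE 3 had the highest CPM of its group in 5 of the 6 lowered genes, while PDCD1LG2 had 2 counts in both CELF6-OE 1 and 3. The same library also had the lowest CELF6 level, at 172 FPKM against 270 and 295 in CELF6-OE 1 and 2. Relative to the Control mean, LGALS9 stood at a log2 ratio of -3.05, -3.12 and -2.02 in CELF6-OE 1, 2 and 3. For TNFRSF14 the log2 ratios were -3.55, -2.87 and -1.94, and for IDO1 -3.68, -3.53 and -2.80. CD274 followed with -1.62, -1.52 and -1.07, and CD47 with -0.79, -0.69 and -0.58. PDCD1LG2 stood at -2.88 and -2.86 in CELF6-OE 1 and 3, with no count in CELF6-OE 2. With 3 libraries a relation to the CELF6 level was not tested. Without CELF6-OE 3 all 6 genes were still called lower, with log2 fold changes of -3.08 for LGALS9, -3.13 for TNFRSF14, -3.60 for IDO1, -1.57 for CD274 and -0.74 for CD47.

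**Figure D4:**
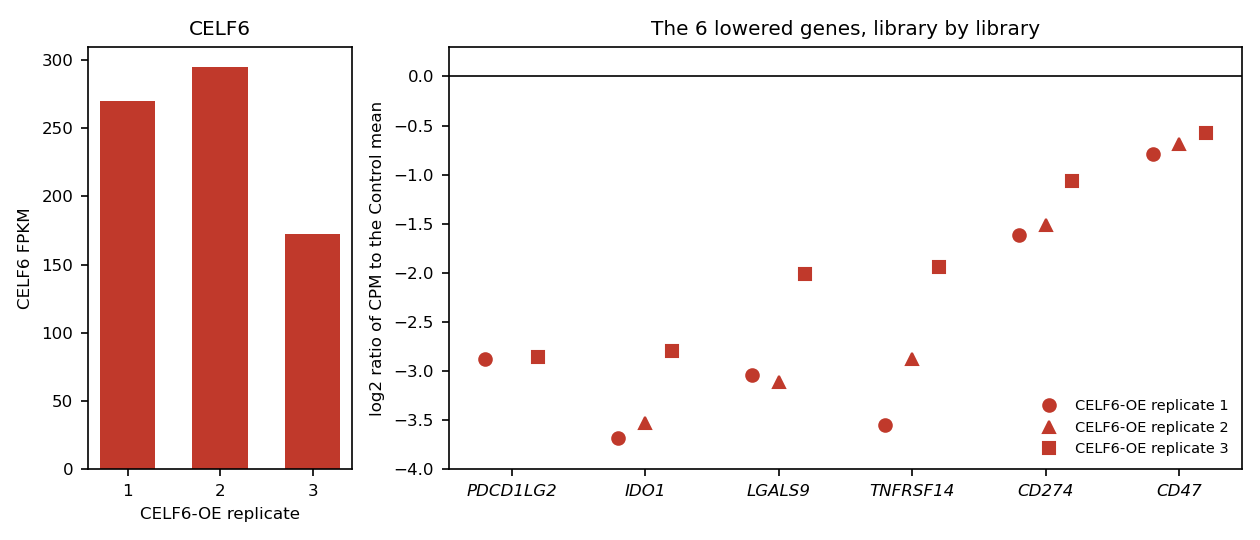
CELF6 FPKM in each CELF6-OE library (bars), beside the log2 ratio of each CELF6-OE library to the Control mean in CPM for the 6 lowered genes, with 1 point per library. CELF6-OE 3 lies nearest to 0 in each gene except PDCD1LG2, where CELF6-OE 1 and 3 had equal counts and there is no point for CELF6-OE 2, where its count was 0.

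The genes of the known route from interferon-gamma to CD274 were examined as a group, since several of the 10 genes are its targets. Of 12 tested, 9 were called lower and 0 higher, with a median log2 fold change of -0.55. IRF1, the transcription factor that binds the CD274 promoter in this route, had 1798, 1771 and 2097 counts in CELF6-OE against 4053, 4233 and 4383 in Control. It fell by 1.09 on the log2 scale (SE 0.09, edgeR adjusted p = 2.01e-05). STAT2, a partner in type I interferon signalling, had a log2 fold change of -1.01 (SE 0.14, edgeR adjusted p = 0.000686). STAT3 had one of -0.40 (SE 0.06, edgeR adjusted p = 0.000794) and SOCS3, a feedback inhibitor of JAK kinases, one of -0.55 (SE 0.08, edgeR adjusted p = 0.00102). Both promoting and inhibiting members of the route were among those called lower.

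Among 12 other transcription factors that bind at CD274, 2 were called lower and 0 higher, and the median log2 fold change was 0.01. For this list and the next, the share over all kept genes was 11.5% called lower and 6.47% called higher. NFKB2 had a log2 fold change of -0.47 (SE 0.10, edgeR adjusted p = 0.00697) and FOS one of -0.78 (SE 0.18, edgeR adjusted p = 0.0138). Neither was called with limma on log2(FPKM + 1) or log2(FPKM + 0.1), and on the latter scale the adjusted p was 0.0572 for NFKB2 and 0.118 for FOS. The 18 genes that act on PD-L1 as a protein, by stabilising, modifying or degrading it, were split, with 3 called lower, 4 called higher and a median log2 fold change of -0.01. CMTM4, which stabilises PD-L1 at the membrane, rose by 0.67 on the log2 scale (SE 0.10, edgeR adjusted p = 0.00126), and USP22, a deubiquitinase that acts on it, rose by 0.41 (SE 0.06, edgeR adjusted p = 0.00117). B3GNT3, which glycosylates PD-L1, had a log2 fold change of -0.67 (SE 0.09, edgeR adjusted p = 0.000592), and HIP1R, which carries it to lysosomes, one of -0.53 (SE 0.09, edgeR adjusted p = 0.00231). GSK3B and CUL3, the remaining genes called higher, had log2 fold changes of 0.25 and 0.29 (edgeR adjusted p = 0.0472 and 0.0332). PDIA6, the remaining gene called lower, had one of -0.26 (edgeR adjusted p = 0.0154). GSK3B, CUL3 and PDIA6 kept their call in 11, 14 and 15 of 21 alternative settings. PD-L1 protein itself was not measured.

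**Figure D5:**
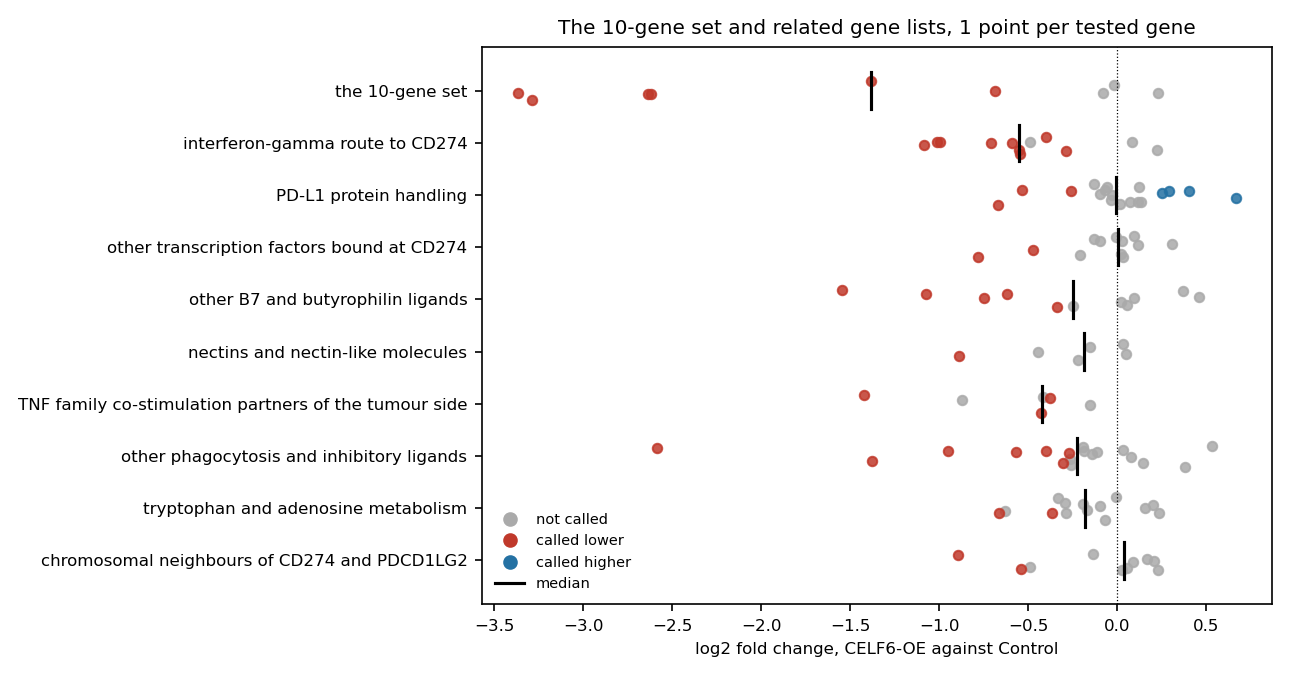
Log2 fold change of CELF6-OE over Control for each tested gene (1 point per gene) of the 10-gene set and of the related gene lists, coloured by whether the edgeR adjusted p was under 0.05, with a bar at each median. In the interferon-gamma route 9 of 12 points are called lower around a median of -0.55, and the 4 points called higher all belong to the genes that act on PD-L1 protein.

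The receptors for these ligands belong to lymphocytes and macrophages, and 1 of the 14 with a row passed the filter on low counts. That gene was SIRPA, the receptor of CD47, with a log2 fold change of 0.15 that did not pass (edgeR adjusted p = 0.195). Of 4 tested leukocyte markers, ITGAM alone was called, with a log2 fold change of -0.73 (SE 0.16, edgeR adjusted p = 0.0119), and this call was lost without CELF6-OE 2 or Control 2 (edgeR adjusted p = 0.0523 and 0.065). The list of A549 and epithelial markers also held genes known as deleted in A549. Of its 13 tested genes, 5 were called lower and 0 higher. The summed FPKM of this list was 10375 to 12005 in CELF6-OE against 12733 to 12984 in Control. CDH1, the adhesion protein E-cadherin, had a log2 fold change of -1.62 (SE 0.17, edgeR adjusted p = 0.000105). The keratins KRT8, KRT18 and KRT19 had log2 fold changes of -0.47, -0.36 and -0.22 (edgeR adjusted p = 0.00532, 0.021 and 0.0362). AKR1C2, an aldo-keto reductase and the remaining called gene, was named after its values were seen. It had a log2 fold change of -0.31 (edgeR adjusted p = 0.0474) and was called in 12 of 21 alternative settings, with an adjusted p of up to 0.219 with limma on log2(FPKM + 1). The call of KRT18 was lost without CELF6-OE 2 or Control 2 (edgeR adjusted p of up to 0.101). That of KRT19 was lost without any 1 of the CELF6-OE libraries or Control 2 (edgeR adjusted p of up to 0.149). KRT19 was also not called with upper quartile scaling. Neither KRT18 nor ITGAM was called with limma on log2(FPKM + 1) or log2(FPKM + 0.1), and KRT8 was not called on the latter. The part of this epithelial difference in the results for the checkpoint genes was not tested.

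For CD274, PDCD1LG2 and CD47 the genes of most similar pattern were sought by Pearson's r of log2 CPM over the 6 libraries, among 11441 genes with a mean of at least 100 counts. These values describe a ranking over points that share 2 groups and 6 libraries. CD274 was closest to STC1, MAP2 and BTC, with r of 0.999, 0.998 and 0.997. Their log2 fold changes were -0.58, -1.11 and -1.07. PDCD1LG2 was closest to DHRS1, DNAJC16 and CASC15, with r of 0.999, 0.996 and 0.995. DNAJC16 was itself not called, with a log2 fold change of -0.13 (edgeR adjusted p = 0.343). PDCD1LG2 had a CPM of at most 0.0585 in CELF6-OE and at most 0.513 in Control, and 0.5 was added to CPM before the log. Its ranking is therefore open to counting error. CD47 was closest to PSMB8-AS1, NMRK1 and EXT1, with r of 0.998, 0.998 and 0.997 and log2 fold changes of -1.68, -0.97 and -0.61.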

How the data were processed

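Groups and replicate numbers followed the sample labels, and the study's methods call the replicates biological. Reads had been trimmed (FASTX-Toolkit) and placed on GRCh38 by TopHat2, and the authors deposited raw counts of uniquely located reads per gene. The authors also deposited FPKM values, rounded to 2 decimals. Libraries were directional per the paper, but whether counting used strand, the counting tool and the annotation release were not given in the sources used here, so overlapping genes are uncertain. Reads carry no molecular identifiers, and counting intervals cover counting error only.

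Counts were tested with edgeR 4.0.16 in R 4.3.3 (TMM scaling, filterByExpr with a minimum count of 10, quasi-likelihood F test, prior count 0.125), fitted on all genes with Benjamini-Hochberg adjustment over the 15847 kept. For DEGs the paper names edgeR and a fold of at least 1.5, in one place with a p under 0.01 and in another with a false discovery rate under 0.05. The rule with p was applied here. The script was tested on simulated data. Alternatives were other scalings and filters, DESeq2 1.42.0, limma 3.58.1, a replicate block and leaving out each library. Gene positions came from GENCODE by gene identifier (29032 of 29889 matched) and promoters from RefSeq. No promoter sequence was searched for PDCD1LG2, CD70 or IDO1, so the motif counts leave these genes out. FPKM per group were compared by exact two-sided permutation tests in scipy 1.17.1.

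The 10 genes and the other lists were chosen with earlier results of these data known. From each other list, up to 4 called genes with the smallest p were named. AKR1C2, GSK3B, CUL3 and PDIA6 were exceptions, named after their values were seen. Every called chromosome 9 neighbour and CELF6 were also named. For 3 of the genes the 3 most correlated genes were named, after adding 0.5 to CPM. CD276, CD70, PVR and the overlapping gene models were described regardless of their calls. CDKN2A, CDKN2B and MTAP, known as deleted in A549, were on the list of A549 markers and are not described here.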

Additional observations from a re-analysis of the deposited data

How the results depend on the processing

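All 6 lowered genes kept their call in every one of 121 results over the alternatives in which they had a test, with edgeR, DESeq2 or limma adjusted p of at most 0.0274. A filter on a mean FPKM of at least 1 and one on at least 1 CPM in 3 libraries each left PDCD1LG2 and TNFRSF14 untested, and DESeq2 gave no adjusted p for PDCD1LG2. The count of the 10 genes called higher was 1 in place of 0 with library size alone, with no filter, with edgeR's likelihood ratio test, with limma on log2(FPKM + 1) for mean FPKM of at least 1 and with overlapping gene models summed (added after seeing the data), and 0 to 1 when single libraries were left out (1 without Control 3), each time through PVR. The log2 fold change of CD276 turned from -0.019 to 0.021 with library size alone, 0.013 with limma on log2(FPKM + 1), with or without the FPKM filter, and 0.014 on log2(FPKM + 0.1), and ran from -0.10 to 0.049 (without Control 3) when single libraries were left out, with no call in any of these. In the other lists the 4 genes called higher became 7 without a filter, 2 on log2(FPKM + 1), 2 on log2(FPKM + 0.1) and 2 to 7 when single libraries were left out. Of 650 results for the 31 genes that the naming rule took from these lists, 609 kept their call, 41 lost it in 10 genes and 0 reversed. Over all genes, 1820 called lower and 1025 called higher became 987 and 535 on log2(FPKM + 1), 974 and 528 on log2(FPKM + 0.1), and 1032 (without Control 2) to 2370 (without Control 1) and 281 (without CELF6-OE 2) to 1906 (without Control 1) when single libraries were left out. A fold of at least 2 left 480 lower and 65 higher DEGs. The cause of these changes was not tested. The numbers of genes tested also differed. They were 29687 on log2(FPKM + 1) and on log2(FPKM + 0.1), and 29889 without a filter, against 15847 in the main fit.

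Replicate numbers 1 to 3 are shared by both groups, but same-numbered libraries did not deviate together over all kept genes (r = -0.0113, -0.0212 and -0.0722). Such a correlation cannot exclude that same-numbered libraries were prepared together, which the sources used here did not state. With a replicate block, 6 of the 10 genes were called lower and 0 higher, all genes called were 1570 lower and 720 higher, and the calls of TNFSF9 and KRT19 were lost (edgeR adjusted p = 0.0524 and 0.0936). No library correlated best with its own number.

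Depth limits VTCN1 and PDCD1LG2, where counts of 0 to 19 per library leave the size of any difference open to counting error. With 3 libraries per group, exact permutation tests of single values cannot go below 0.1.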
